A study of Homo sapiens with 6 samples.

Results

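The 3 EIF5A paralogs (EIF5A2, EIF5A and EIF5AL1) and the 2 hypusination enzymes (DHPS and DOHH) were followed in SKOV3 cells after knockdown of EIF5A2. They were taken by symbol, with earlier results of these data known, as 5 of the 58825 gene identifiers in the table. All 5 passed the filter on low counts that left 16208 genes for testing. RNA-seq was run on SKOV3, an established human ovarian cancer cell line, after transfection with a negative control siRNA (NC, 3 libraries) or an siRNA against EIF5A2 (si-EIF5A2, 3 libraries), both for 48 h. Both groups were the same unmodified line carrying siRNA, a single line and a single time point were measured, and the siRNA lowers the mRNA without altering the gene. The labels do not say whether the 3 libraries of a group came from separate cultures, so the p-values measure only the spread between these libraries.

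eIF5A is a small translation factor that binds the ribosome and helps it through sequences that form peptide bonds slowly, such as runs of proline, and through termination. It works only after a single lysine is turned into hypusine, an amino acid known from this protein family alone: deoxyhypusine synthase (DHPS) moves an aminobutyl group from the polyamine spermidine onto the lysine, and deoxyhypusine hydroxylase (DOHH) adds a hydroxyl group. EIF5A is expressed in nearly all cells, EIF5A2 is low in most adult tissues and was found as a gene amplified in ovarian and other cancers, and EIF5AL1 is a copy of EIF5A without introns.

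The coding sequences around this lysine are shown because they tell which paralogs sequencing reads can separate. Each stretch is the coding strand, 5′ to 3′, from GENCODE release 29 on GRCh38, with the AAG codon of the hypusinated lysine (codon 50, counted from the start codon) in capitals. For EIF5A2 (chr3:170907079-170907689, minus strand) and EIF5A (chr17:7309753-7311032, plus strand) it runs from exon 2 into exon 3 with the intron left out, and for EIF5AL1 (chr10:79512767-79512829, plus strand) it lies in the single exon.
EIF5A2: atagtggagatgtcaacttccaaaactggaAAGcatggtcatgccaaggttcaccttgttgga
EIF5A: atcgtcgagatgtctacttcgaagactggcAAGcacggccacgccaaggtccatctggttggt
EIF5AL1: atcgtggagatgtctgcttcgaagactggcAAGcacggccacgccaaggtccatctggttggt
Over these 63 bases EIF5A2 differed from EIF5A at 13 positions, and EIF5AL1 differed from EIF5A at 2.

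Over the whole coding sequence, EIF5A2 (459 bases without the stop codon) was 71.4% identical to EIF5A (462 bases), with no identical run longer than 14 bases. No stretch of 150 bases was shared between transcripts of these genes, so reads of that length can be told apart. EIF5AL1 differed from EIF5A at 5 of 462 aligned coding bases (98.9% identity), and its longest identical run was 192 bases. A 150-base window is therefore shared exactly in 13.7% of the positions of each coding sequence. The processed pseudogene EIF5AP4 (chr10:80247219-80247683, minus strand) differed from EIF5A at 7 coding bases and from EIF5AL1 at 2. It shared no exact 150-base window with EIF5A (longest identical run 120 bases). With EIF5AL1 its longest run was 253 bases, and 33.2% of the EIF5AL1 windows were shared. Counts of EIF5AL1 are thus uncertain relative to those of EIF5A and EIF5AP4. Those of EIF5A and EIF5AP4, which differ at few bases, are uncertain relative to each other as well. Counts of EIF5A2 are not affected by the other paralogs.

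The libraries held totals of 46900204 to 74142267 estimated counts. Low values piled up at multiples of about 3.67, so that a sequenced fragment appeared to be worth about 3.67 counts. For a gene at 0, the upper limit of the expected level was taken as 3 fragments, or 0.148 to 0.235 CPM (counts per 1000000 counts of a library). Libraries of the same group correlated at r = 0.964 to 0.974 across genes and libraries of different groups at 0.929 to 0.938, and no library stood apart from its group. Levels in TPM are counts per kilobase of exon, scaled to sum to 1000000 per library. Of 6 epithelial markers, 5 were above 1 TPM in every library, with CDH1 below it. Of 5 ovarian cancer markers, ERBB2, PAX8 and WT1 were above 1 TPM in every library. Their NC means were 12.3, 39.6 and 1.58 TPM. MSLN ran from 0.159 to 1.25 TPM over the 6 libraries, and MUC16, which encodes CA125, was at 0. The summed epithelial markers were at 832 to 898 TPM in NC and 543 to 745 TPM in si-EIF5A2, and the summed ovarian markers at 51.6 to 57.7 and 37.8 to 41.9 TPM. KRT7, KRT8 and PAX8 were called lower, and the part of these shifts in the results below was not tested. The 10 blood, endothelial and liver markers were below 1 TPM in all 6 libraries.

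A gene was called changed at an adjusted p under 0.05 (edgeR quasi-likelihood test, Benjamini-Hochberg adjustment over 16208 genes) with a fold change over 1.5 in either direction. EIF5A2 and DHPS, 2 of the 5 genes, were called, both lower in si-EIF5A2, where 24.6% of all genes tested were called in either direction and 13.6% were called lower. The CPM of the groups did not overlap for 3 of the 5 genes (EIF5A2, EIF5AL1 and DHPS), against 51.2% of all genes tested. Apart from the siRNA target itself, 1 of 4 genes was called, which is close to the share over all genes.

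**Figure D1:**
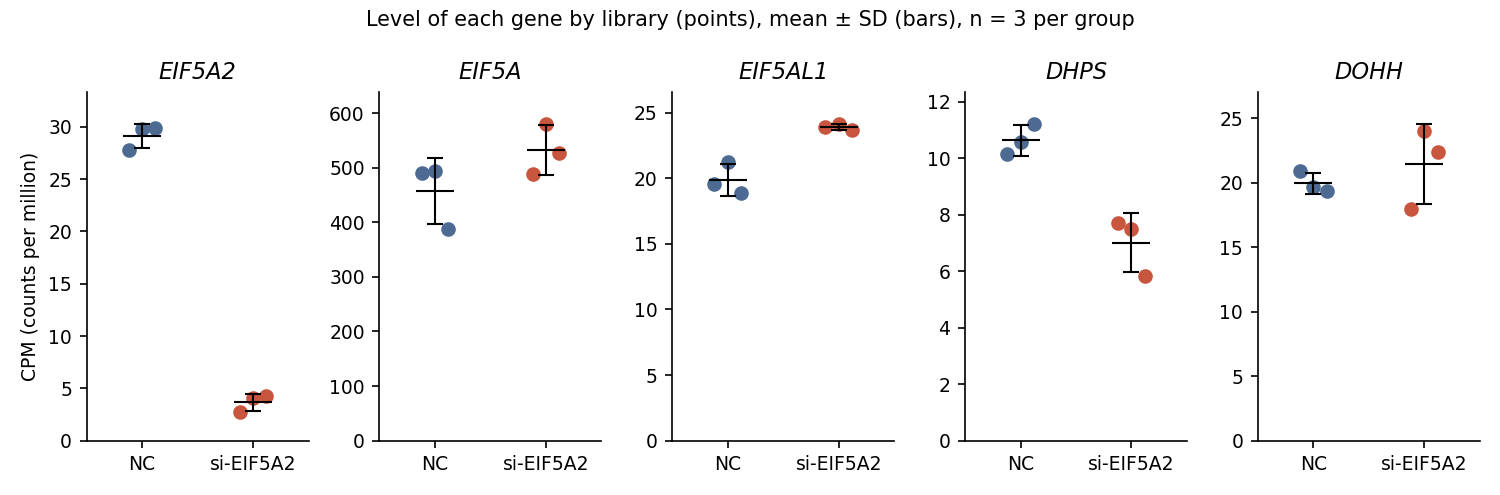
Level of the 5 genes in CPM (vertical axes, each from 0, on its own scale) in the 3 NC libraries (blue points) and the 3 si-EIF5A2 libraries (red points), with the mean and SD as black bars. EIF5A2 fell in all 3 si-EIF5A2 libraries, DHPS was lower with groups that did not overlap, and the EIF5A and DOHH groups overlapped.

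EIF5A2 (ENSG00000163577, chr3:170888415-170908693, minus strand), the siRNA target, was lower in every si-EIF5A2 library. Its level was 27.8, 29.8 and 29.9 CPM in NC replicates 1 to 3 and 2.76, 4.04 and 4.27 CPM in si-EIF5A2 replicates 1 to 3. The groups lay far apart, and the highest si-EIF5A2 library was well under the lowest NC library. The mean fell from 29.1 ± 1.15 to 3.69 ± 0.817 CPM (SD, n = 3), leaving 12.7% of the NC level, with a log2 fold change of -2.98 (SE 0.18, 95% interval -3.40 to -2.57, edgeR adjusted p = 1.6e-05). Of all genes tested, 185 (1.14%) had a lower log2 fold change than the target. What remained was above the detection limit, at about 38, 57 and 56 fragments. In these bulk libraries, a loss from a part of the cells and a lower level in each cell cannot be told apart.

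EIF5A (ENSG00000132507, chr17:7306999-7312463, plus strand), the widely expressed paralog, was not called. It was at 490, 494 and 387 CPM in NC and at 488, 581 and 527 CPM in si-EIF5A2. The groups overlapped, and NC replicate 3 was the lowest of the 6 libraries. The log2 fold change was 0.22 (SE 0.11, 95% interval -0.043 to 0.48, edgeR adjusted p = 0.174), an interval whose upper end lies below a 1.5-fold rise.

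EIF5AL1 (ENSG00000253626, chr10:79512601-79516440, plus strand), the copy of EIF5A, was at 19.5, 21.2 and 18.9 CPM in NC and at 23.9, 24.2 and 23.7 CPM in si-EIF5A2. All 3 si-EIF5A2 libraries were above all NC libraries. The log2 fold change of 0.27 (SE 0.095, 95% interval 0.047 to 0.48) did not pass the test (edgeR adjusted p = 0.0601). Its counts were 3.99% to 4.90% of those of EIF5A in the same library, at 4.39% ± 0.451 in NC and 4.52% ± 0.370 in si-EIF5A2 (SD, n = 3, exact permutation p = 0.7, 2-sided).

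The other copies were looked at in the same way. EIF5AP4 was at 743, 649 and 487 counts in NC and 454, 576 and 451 counts in si-EIF5A2, with a log2 fold change of -0.018 (edgeR adjusted p = 0.936). Pseudogenes EIF5AP2 and EIF5AP3 were at 0 in all 6 libraries, and EIF5A2P1, the processed pseudogene of EIF5A2, had 4 counts in si-EIF5A2 replicate 3 and 0 elsewhere. When EIF5A, EIF5AL1 and EIF5AP4 were summed, so that the splitting of reads among the 3 no longer mattered, the level was 487 ± 61.2 CPM in NC against 566 ± 47.6 CPM in si-EIF5A2 (SD, n = 3), with a log2 fold change of 0.22 (SE 0.11, edgeR adjusted p = 0.164). The summed groups overlapped, as those of EIF5A alone did.

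Levels of different genes were compared per length, in TPM over the union of a gene's exons. In NC the order was EIF5A at 448 ± 52.1, DOHH at 27.2 ± 0.534, EIF5A2 at 14.4 ± 0.880, EIF5AL1 at 14.3 ± 0.871 and DHPS at 9.80 ± 0.732 TPM (SD, n = 3). EIF5A2 was below EIF5AL1 in NC replicate 1 (13.4 against 13.7 TPM) and replicate 2 (14.7 against 15.3 TPM). It was above EIF5AL1 in NC replicate 3 (15.1 against 13.9 TPM), so these genes cannot be ordered. The other neighbours in this order did not overlap. Both genes of a pair were measured in the same 3 libraries, so a test of separate groups does not apply to this order. With the longest transcript as the length, DHPS moved up 2 places, at 16.3 ± 1.15 TPM, above both EIF5A2 at 10.9 ± 0.631 TPM and EIF5AL1 at 10.8 ± 0.679 TPM. In si-EIF5A2 the means were 548 ± 31.5 TPM for EIF5A, 30.6 ± 3.72 for DOHH, 18.1 ± 0.435 for EIF5AL1, 6.78 ± 1.0 for DHPS and 1.91 ± 0.401 for EIF5A2, which was then the lowest of the 5.

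EIF5A2 was a small part of the mRNA of its family before the knockdown. Its share of the summed TPM of EIF5A2, EIF5A and EIF5AL1 was 2.70%, 2.86% and 3.61% in NC, against 0.274%, 0.339% and 0.393% after the knockdown. The groups did not overlap (3.06% ± 0.489 and 0.335% ± 0.0600, SD, n = 3, exact permutation p = 0.1, 2-sided, the smallest possible). The NC share depended on the length used, at 1.69% over the longest transcripts and 6.94% over the coding sequences, and the si-EIF5A2 share was 0.183% and 0.790% with these lengths. EIF5A held 93.9% ± 0.770 of the family level in NC and 96.5% ± 0.223 in si-EIF5A2, and EIF5AL1 held 3.02% ± 0.285 and 3.19% ± 0.254.

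The summed level of the family was not lower after the knockdown. It was 497, 516 and 418 TPM in NC and 536, 599 and 570 TPM in si-EIF5A2 (477 ± 52.1 and 568 ± 31.4, exact permutation p = 0.1, 2-sided). All 3 si-EIF5A2 libraries were above all NC libraries in TPM, but this depended on the unit. EIF5A alone did not overlap in TPM (389 to 486 in NC, 516 to 579 in si-EIF5A2). In CPM it overlapped (387 to 494 and 488 to 581), as did its sum with EIF5AL1 and EIF5AP4. The share of all genes without overlap was counted in CPM only. Within a library, where normalization plays no part, the log2 ratio of EIF5A2 to EIF5A counts was -3.96 ± 0.235 in NC and -7.19 ± 0.261 in si-EIF5A2 (SD, n = 3), a difference of -3.23 (exact permutation p = 0.1, 2-sided).

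Of the enzymes, DHPS (ENSG00000095059, chr19:12675717-12681902, minus strand), which carries out the first step of hypusination, was called lower. It was at 10.1, 10.6 and 11.2 CPM in NC and at 7.73, 7.49 and 5.82 CPM in si-EIF5A2, which rests on 144 to 204 and 76 to 108 fragments per library. The groups did not overlap, and si-EIF5A2 replicate 3 was the lowest. The mean was 10.6 ± 0.549 CPM in NC against 7.01 ± 1.04 CPM in si-EIF5A2 (SD, n = 3), 65.8% of the NC level, and the log2 fold change was -0.60 (SE 0.15, 95% interval -0.95 to -0.25, edgeR adjusted p = 0.0158). This is just past the fold limit, and 21.2% of the genes tested had a lower log2 fold change. Without si-EIF5A2 replicate 3 it was -0.49 (edgeR adjusted p = 0.0423) and without NC replicate 3 it was -0.57 (adjusted p = 0.0497), both under the fold limit.

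The DHPS counts also depended on how reads were divided with an overlapping gene. A read-through gene on the same strand (ENSG00000285589, chr19:12668071-12681834) covers 1157 of the 1363 bases of the transcript DHPS-201, or 84.9%, and then runs on into WDR83OS. Its counts were 4817, 3985 and 2515 in NC and 2443, 2894 and 2458 in si-EIF5A2, and DHPS held 10.2% to 17.4% of the counts of both. The read-through gene was at 58.6 ± 6.57 CPM in NC against 51.5 ± 3.84 CPM in si-EIF5A2 (SD, n = 3), and its groups overlapped (log2 fold change -0.19, SE 0.11, edgeR adjusted p = 0.218). Summed, the 2 genes were at 76.1, 66.8 and 64.7 CPM in NC and 55.5, 62.9 and 57.1 CPM in si-EIF5A2. The summed groups did not overlap, but the log2 fold change of -0.24 (SE 0.095, 95% interval -0.46 to -0.023) did not pass the test (edgeR adjusted p = 0.0823). The call of DHPS rests on the reads divided as in the deposited table, and no other division was run. Most counts of the sum were those of the read-through gene, so the sum cannot decide whether DHPS itself was lower.

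Other overlapping genes were measured because the strand setting of the counting is not given in the sources used here, and without strand, reads over shared bases cannot be told apart. WDR83, which encodes a WD-repeat protein on the opposite strand, shares 116 bases (3.86%) of the DHPS exons and had a log2 fold change of -0.36 (edgeR adjusted p = 0.132). It also shares 1374 bases (27.3%) of the exons of the read-through gene. Without strand, the counts of that gene, and its sum with DHPS, may thus include WDR83 reads, which was not tested. WDR83OS, on the DHPS strand, had -0.35 (adjusted p = 0.271). GPS2, which encodes a subunit of a nuclear corepressor complex, lies opposite EIF5A and shares 241 bases (8.56%) of the EIF5A exons. It was at 46.3 ± 4.01 CPM in NC against 31.5 ± 1.99 CPM in si-EIF5A2 (SD, n = 3, log2 fold change -0.56, SE 0.10, edgeR adjusted p = 0.00323), which passed the p threshold and not the fold limit.

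DOHH (ENSG00000129932, chr19:3490822-3500940, minus strand), the enzyme of the second step, was not called. It was at 20.9, 19.6 and 19.4 CPM in NC and at 18, 24.0 and 22.4 CPM in si-EIF5A2. The groups overlapped, with si-EIF5A2 replicate 1 the lowest of the 6 libraries. The log2 fold change was 0.10 (SE 0.13, 95% interval -0.19 to 0.40, edgeR adjusted p = 0.576). Within a library the log2 ratio of DHPS to DOHH counts was -1.04, -0.89 and -0.78 in NC and -1.22, -1.68 and -1.94 in si-EIF5A2. The ratio was lower in all 3 si-EIF5A2 libraries, by 0.71 on average (exact permutation p = 0.1, 2-sided, the smallest possible), and it carries the uncertainty of the DHPS counts.

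**Figure D2:**
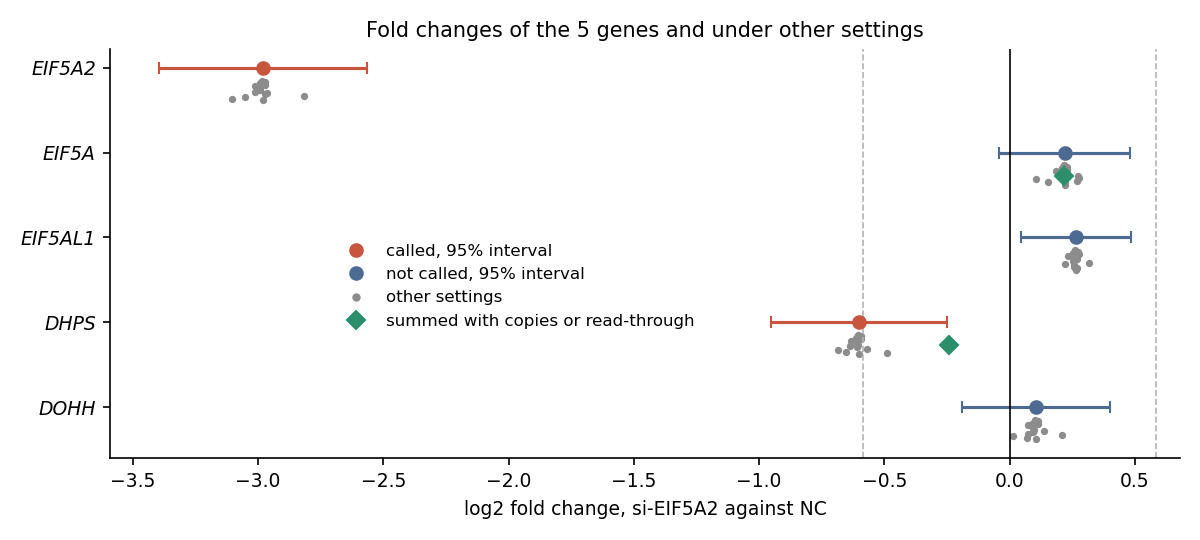
Log2 fold change, si-EIF5A2 against NC (horizontal axis), of each gene with its 95% interval (red, called; blue, not called), under other settings (grey points) and summed with copies or with the read-through gene (green diamonds); dashed lines mark a 1.5-fold change. EIF5A2 stays between -3.10 and -2.82, DHPS is at -0.60 and its sum with the read-through gene is at -0.24.

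The genes that supply, degrade and transport spermidine, the substrate of DHPS, included genes called in each direction with all 6 libraries. Of 20 genes listed 18 were tested, 2 were called higher and 2 lower, 22.2% against 24.6% of all genes, and the median log2 fold change was -0.069 (-0.010 over all genes tested). ODC1, which encodes ornithine decarboxylase at the head of polyamine synthesis, was at 451 ± 38.5 CPM in NC against 406 ± 27.6 CPM in si-EIF5A2 (SD, n = 3, log2 fold change -0.15, edgeR adjusted p = 0.232). AMD1 provides the decarboxylated S-adenosylmethionine from which spermidine is built. It was at 70.8, 41.6 and 39.4 CPM in NC and at 26.2, 28.5 and 25.4 CPM in si-EIF5A2, and was called lower (-0.92, SE 0.23, edgeR adjusted p = 0.0187). The AMD1 groups did not overlap, and NC replicate 1 was far above the other NC libraries. Without NC replicate 1 the log2 fold change was -0.60 and still called, and with any of the 3 si-EIF5A2 libraries left out the call was lost (edgeR adjusted p = 0.0546 to 0.0665).

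Spermidine synthase, SRM, had a log2 fold change of -0.085 (edgeR adjusted p = 0.535). SMS, which turns spermidine into spermine, was at 317, 319 and 336 CPM in NC and at 447, 420 and 430 CPM in si-EIF5A2. All 3 si-EIF5A2 libraries were higher, and SMS passed the p threshold and not the fold limit (0.42, edgeR adjusted p = 0.00176). The other 3 called genes, AZIN2 and ATP13A2 were chosen after their values were seen. SAT1, the acetyltransferase that starts polyamine breakdown and export, rose from 54.3 ± 2.0 to 106 ± 7.28 CPM (0.96, edgeR adjusted p = 8.3e-05), and ATP13A3, a polyamine transporter, rose from 96.1 ± 6.69 to 374 ± 24.0 CPM (SD, n = 3, log2 fold change 1.96). ATP13A2, also listed for transport, went the other way, from 67.1 to 46.8 CPM (-0.52, edgeR adjusted p = 0.00961). Its groups did not overlap, and it passed the p threshold and not the fold limit. AGMAT, annotated as an agmatinase, was called lower (-0.89), but lost the call in 4 of the 6 fits that each left out a library, those without NC replicate 1 or 2 and without si-EIF5A2 replicate 1 or 3 (highest edgeR adjusted p = 0.0874). With si-EIF5A2 replicate 1 left out, the list had 3 genes called higher and 0 lower, the third being AZIN2, an antizyme inhibitor (0.90, edgeR adjusted p = 0.0483, against 0.74 and 0.0677 with all libraries). SAT1 and ATP13A3 were called in all 6 such fits. MTAP, which recycles the by-product of spermidine synthesis, and ARG1, a liver arginase, had at most 5 counts in any library and were not tested.

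The export and acetylation of eIF5A were followed over 4 genes, of which 1 was called (25%, against 24.6% of all genes tested). The median log2 fold change of these genes was -0.26 (-0.010 over all genes tested). HDAC6, a deacetylase reported to act on eIF5A, was at 16.1, 16.4 and 15.6 CPM in NC and at 8.39, 9.06 and 8.67 CPM in si-EIF5A2. The groups were well separated (-0.88, SE 0.11, edgeR adjusted p = 5.17e-04). SIRT2, the other deacetylase, had 0.30 (adjusted p = 0.0834), and KAT2B, an acetyltransferase, had -0.52 (adjusted p = 0.0273) and missed the fold limit. XPO4, the nuclear export receptor of eIF5A, was at 49.2 CPM in NC against 49.4 CPM in si-EIF5A2. With si-EIF5A2 replicate 1 left out, KAT2B was called too (-0.60), giving 2 of 4, and HDAC6 was called in all 6 leave-one-out fits.

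The elongation, termination and ribosome rescue factors, which work at the same ribosomes as eIF5A, gave 1 gene higher and 3 lower of 17 tested (23.5% called, median log2 fold change -0.013). The 2 most abundant were not called, with EEF1A1, the factor that delivers aminoacyl-tRNA, at a log2 fold change of 0.062 and EEF1G, a subunit of its exchange complex, at -0.013. HBS1L, which with PELO rescues stalled ribosomes, was at 43.6, 49.5 and 51.8 CPM in NC and at 16.9, 15.1 and 18.6 CPM in si-EIF5A2. This was the lowest log2 fold change of the list (-1.52, SE 0.12). PELO went the other way, from 67.1 to 95.3 CPM (0.51, edgeR adjusted p = 0.00125), and passed the p threshold and not the fold limit. EEF2K, the kinase that inhibits the translocation factor eEF2, had -0.78 (edgeR adjusted p = 0.00166), and EEFSEC, the elongation factor for selenocysteine, had -0.61 (adjusted p = 0.0153). ETF1, the release factor that reads stop codons, rose from 169 ± 4.73 to 266 ± 23.3 CPM (SD, n = 3, log2 fold change 0.65, edgeR adjusted p = 5.33e-04). With si-EIF5A2 replicate 1 left out, 0 genes of the list were called higher and 2 lower, since ETF1 (0.58) and EEFSEC (-0.50) were under the fold limit. EEFSEC also lost its call without NC replicate 1 (edgeR adjusted p = 0.0542), and the count over all leave-one-out fits ran from 2 to 5. HBS1L and EEF2K were called in all 6 of these fits.

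TFEB, ATG3 and PEAK1, whose proteins are known to need hypusinated eIF5A for their synthesis, were not called at the mRNA level. TFEB, a regulator of autophagy and lysosome genes, had a log2 fold change of -0.53 (edgeR adjusted p = 0.093). The values of ATG3, an autophagy enzyme, and PEAK1, a cytoskeletal kinase, were 0.064 and -0.057. RNA-seq measures mRNA, so neither the synthesis of these proteins nor hypusination itself was observed here.

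**Figure D3:**
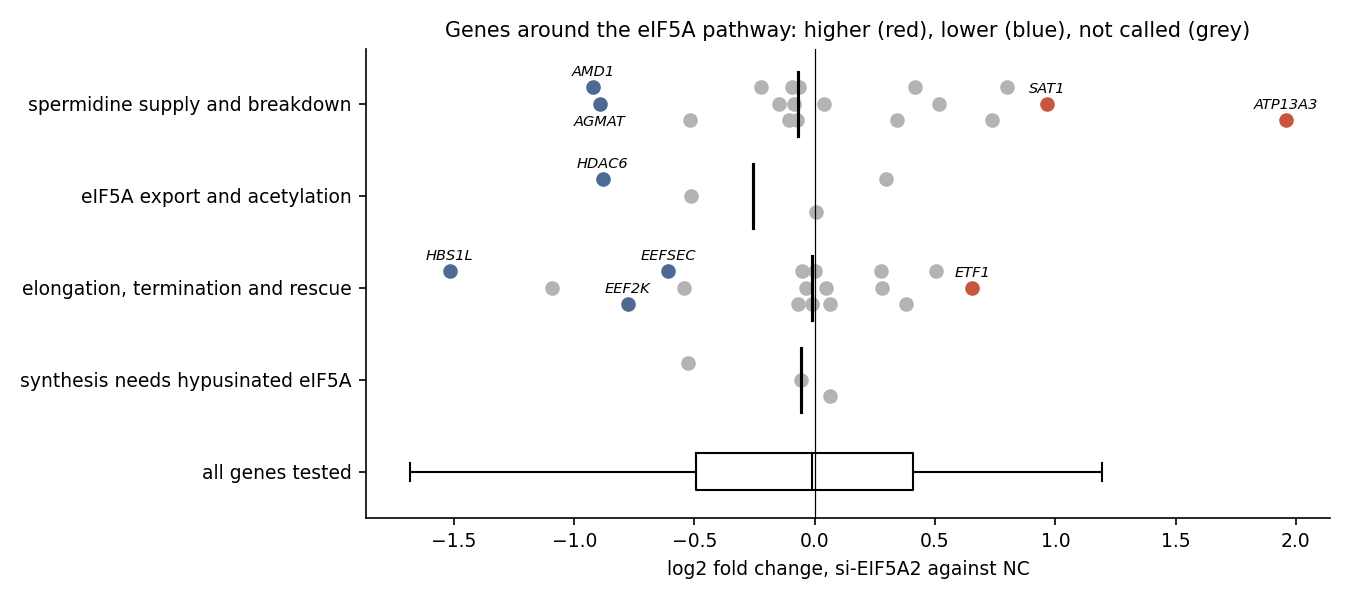
Log2 fold change, si-EIF5A2 against NC (horizontal axis), of each tested gene of the 4 lists (points; red, called higher; blue, called lower; grey, not called), with the median of each list as a black line, above a box of all 16208 genes tested (quartiles, with whiskers from percentile 5 to 95). The list medians lie between -0.26 and -0.013, and called genes are on both sides of 0 for spermidine and for elongation with all 6 libraries, though on a single side of it without si-EIF5A2 replicate 1.

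The genes whose log2 CPM followed each gene most closely over the 6 libraries were found by the root mean square difference of the profiles, each centred on its own mean. For EIF5A2 they were KIFC1, a kinesin (difference 0.058), WDR62, a spindle pole protein (0.109), FANCG, a DNA repair protein (0.113), ACBD7 (0.12) and NYNRIN (0.139), and only KIFC1 lay within 0.1. For EIF5A they were APRT (0.023), HPS6 (0.038) and MPC1 (0.038), among 151 genes within 0.1. For EIF5AL1 they were MT-RNR2 (0.025), CSNK2A2 (0.029) and KTI12 (0.036), among 547 genes. DHPS was closest to SLC25A26 (0.030), HMGN3 (0.031) and NPEPPS (0.051), among 57 genes, and DOHH to TMEM101 (0.030), MRPL52 (0.031) and TTC38 (0.040), among 193 genes. The measure includes the size of the change, so few genes could lie close to EIF5A2, than which only 185 had a lower log2 fold change. The numbers of genes within 0.1 thus follow in part from the size of each change.

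RPL22L1, a paralog of the ribosomal protein gene RPL22 and the nearest tested gene to EIF5A2 on chromosome 3 (17932 bases away), fell too. Its mean CPM was 224 in NC and 70.9 in si-EIF5A2 (log2 fold change -1.66, SE 0.10, edgeR adjusted p = 2.08e-05). The other 3 of the 4 nearest tested genes were not called, with log2 fold changes of -0.29 for SLC7A14-AS1, 0.18 for TNIK, a kinase of Wnt signalling, and -0.21 for ENSG00000279673.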

How the data were processed

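From paired-end sequencing of mRNA, the authors estimated expression with StringTie and ballgown. The deposited table holds estimated counts per gene as whole numbers, without normalization. The submitters' processing notes name Bowtie 0.12.2 and the mouse builds mm8 and mm9, whereas the table holds human identifiers; the build and annotation actually used are not given in the sources used here. StringTie divides fragments among overlapping transcripts, which affects DHPS and the read-through gene. The EIF5A copies do not overlap EIF5A, and their counts depend on where reads of shared or near-identical sequence were placed.

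The 6 columns were matched to the 6 libraries by name. Of 58825 identifiers, 58552 were found in the GRCh38 annotation of GENCODE (release 29), the source of all positions, exon lengths and sequences. Counts were planned for and estimated counts were found; rounding changed nothing. edgeR 4.0.16 (R 4.3.3) was run on all 6 libraries with group as the only term (filterByExpr, TMM, robust quasi-likelihood fit, Benjamini-Hochberg over 16208 genes). Calls needed an adjusted p under 0.05 with a fold change above 1.5. The SE is the log2 fold change over the square root of F. CPM uses TMM library sizes. Coding sequences were aligned with Biopython 1.88, and exact permutation tests (scipy 1.17.1) compared 3 with 3 libraries, 2-sided, where p cannot go below 0.1. Ratios used counts plus 0.5. On simulated data with few changed genes, edgeR recovered 48.3% of 2-fold and 73.9% of 4-fold changes, and 6.72% of its calls were false. DESeq2 recovered 61.8% and 84.7%, with 25.1% of its calls false. A gene not called may thus still have changed. Limits at 0 cover counting error only.

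The genes, lists and tests were chosen with earlier results of these data known. Named were the 5 genes, the copies, overlapping genes, the 2 nearest tested genes on each side of EIF5A2, called or most abundant genes of the export and elongation lists, ODC1, AMD1, SRM, SMS, TFEB, ATG3, PEAK1 and the genes most alike (5 for EIF5A2, 3 for each other); SIRT2, MTAP, ARG1 and any other gene were named after their values were seen. Alternatives were DESeq2 1.42.0, RLE, upper-quartile or no normalization factors, other count filters, the replicate block, counts divided by their step, other thresholds, lengths and sums, and leaving out each library. A list of genes with proline runs was not analysed here.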

Additional observations from a re-analysis of the deposited data

How the results depend on the processing

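EIF5A2, EIF5A, EIF5AL1 and DOHH kept their direction and their side of the threshold under all 15 or 16 alternatives run for each, with log2 fold changes of -3.10 to -2.82, 0.10 to 0.28, 0.22 to 0.32 and 0.015 to 0.21. DHPS lost its call under 3 of 16. In 2 of these a library was left out, and the fits of that kind ranged from -0.68 to -0.49. The other was the sum with the read-through gene (-0.24, an alternative chosen after the data were seen). It adds the reads that the table gives to that gene, which are most of the sum, so it says little of DHPS alone. The number of genes called was 3992, and it was 2370 at an unadjusted p under 0.05 and a fold change over 2, 4344 with DESeq2 and 5974 with no fold limit. Leaving out libraries gave 3 to 4 called genes for spermidine, 1 to 2 for export and acetylation and 2 to 5 for elongation; AMD1, AGMAT, ETF1 and EEFSEC lost their calls in 3, 4, 1 and 2 of 6 fits. The share of EIF5A2 in the family moved with the length used, from 3.06% to 1.69% (longest transcript) or 6.94% (coding length) in NC and from 0.335% to 0.183% or 0.790% in si-EIF5A2, always lower in si-EIF5A2. Same-numbered libraries did not deviate together (correlations of -0.0244, 0.00522 and -0.00269, against -0.0412 to 0.0436 for differently numbered ones). This cannot tell whether same-numbered libraries were prepared together, and the labels do not say. With the replicate block, 3731 genes were called, EIF5A2 had -3.00 and DHPS -0.61, and the call of no gene among the 5 changed. With 3 libraries a group, the p-value of an exact permutation test cannot pass 0.05, and the DHPS values rest on about 76 to 204 fragments per library.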

Other observations

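The 2 nearest tested genes on each side of each of the 5 genes gave 2 called higher and 4 called lower of 20 (30.0%, median log2 fold change 0.11, against 24.6% and -0.010 over all genes tested). Beside RPL22L1 these were chosen after their values were seen. ELP5, a subunit of the Elongator complex that modifies transfer RNA, lies near EIF5A and fell from 40.9 to 13.9 CPM (log2 fold change -1.56, SE 0.13, edgeR adjusted p = 8.04e-05). ACAP1, on the other side of EIF5A, was low in both groups, at 1.11 and 0.209 CPM (-2.40, SE 0.52, edgeR adjusted p = 0.00824). The second mean is about the limit taken for a gene at 0 (0.208 to 0.233 CPM in si-EIF5A2), so the size of this fall is uncertain. PPIF, which encodes mitochondrial cyclophilin D and lies near EIF5AL1, rose from 263 to 466 CPM (0.82, SE 0.072, edgeR adjusted p = 9.24e-05). Around DOHH, FZR1, an activator of the anaphase-promoting complex, fell from 29 to 18.1 CPM (-0.68, edgeR adjusted p = 0.00288), and MFSD12 rose from 83.9 to 139 CPM (0.73, edgeR adjusted p = 0.00136). None of the 4 nearest tested genes to DHPS was called.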
